A study of Mus musculus with 12 samples.

Results

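The amyloid precursor family and its secretases were followed across the m6A peaks of the mouse hippocampus. The 7 genes are *App*, *Aplp1* and *Aplp2*, which encode the amyloid precursor protein and its relatives, and *Bace1*, *Psen2*, *Ncstn* and *Adam10*, which encode the proteases that cut these proteins or subunits of such proteases. Counted as theirs were the peaks that the deposited annotation names for one of these genes. No measured value was used to pick peaks, but the genes were chosen with earlier results of these data known. The WT peak list held 18 such peaks of 33622, the *Tyrobp*-/- list held 15 of 34935, and the table that sets the genotypes against each other held 4 of 5640.

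MeRIP-seq captures fragments of poly(A) RNA with an antibody against m6A (the IP library) and reads them beside the uncaptured RNA (the input library). Hippocampi of male C57BL/6 mice aged 6 months were used, either WT or carrying a TALEN-made deletion in exon 2 of *Tyrobp* (*Tyrobp*-/-), with littermates as WT controls. *Tyrobp* encodes an adaptor protein of microglial receptors. Each genotype had 3 samples, each of them the RNA of 3 mice, and IP and input RNA of every sample were sequenced, which makes 12 libraries. The deposited files hold 1 peak list per genotype over its 3 samples, so each peak has 1 fold enrichment per genotype, with no replicate error, and no difference between the genotypes can be tested.

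APP is a membrane protein that is cut in alternative ways. The α-secretase ADAM10 cuts inside the amyloid β sequence and so prevents its release, whereas the β-secretase BACE1 cuts at its start. The remaining stub is cut within the membrane by γ-secretase, a complex of a presenilin such as PSEN2, nicastrin (NCSTN), APH1 and PSENEN, and after β-cleavage this releases amyloid β. APLP1 and APLP2 are cut by the same classes of enzyme but hold no amyloid β sequence. The m6A mark is written on mRNA mainly near stop codons and in 3′UTRs, often at adenosines within GGAC, and peaks at the first transcribed bases can also come from the cap-adjacent m6Am, which the antibody recognises as well.

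Of the 7 genes, 4 had a peak in the 5′UTR, and 3 of these peaks reach the transcribed bases held in the RefSeq table of gene starts (GRCm38.p6). The first transcribed bases inside each peak are shown because they lie at or shortly downstream of the starts in that table. GGAC was to be set in capitals where it occurs. They are chr16:85173678-85173707 on the reverse strand for *App*, chr9:31211799-31211815 on the reverse strand for *Aplp2* and chr9:70678997-70679026 on the forward strand for *Adam10*.
App: gtcagtttcctcggcggcgggaggcgagag
Aplp2: agacgcttctgggtcgc
Adam10: gggaagggaggaaggaagaggccgaggggg
None of the 3 runs held GGAC on the transcribed strand, the only strand searched. In longer windows of 50 transcribed bases, which are not comparable with these runs, 1 of the 7 windows of the genes held GGAC, that of *Ncstn*, and 18.9% of 32851 over all RefSeq starts. The *App* run begins at the start held in the table of starts, chr16:85173707, which the 61 bp peak of the *Tyrobp*-/- list spans. This start lies inside the RefSeq span of *App*, whose 5′ end is at chr16:85175255. The *Aplp2* and *Adam10* runs begin where their peaks begin, downstream of the start in the table. The *Bace1* start has no entry in that table.

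All 7 genes had at least 1 peak in each list. *App*, the precursor itself, had 4 peaks in WT and 5 in *Tyrobp*-/-. *Bace1* and *Adam10* each had 4 in WT and 3 in *Tyrobp*-/-, *Aplp2* and *Psen2* each had 2 and 1, and *Aplp1* and *Ncstn* had 1 in each list. The median over all genes with a peak was 2 in both lists. Of the 18 WT peaks, 14 shared exonic bases with a peak of the *Tyrobp*-/- list, against 79.5% of all WT peaks, and 12 of the 15 *Tyrobp*-/- peaks shared bases with a WT peak, against 77.4% of all peaks of that list.

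Most sites of these genes were enriched modestly. The median fold enrichment of IP over input was 3.24 for the 18 WT peaks, against 5.54 for the whole list, and 4.55 for the 15 *Tyrobp*-/- peaks, against 5.72. In WT, 14 of the 18 peaks lay under the median of the list, and in *Tyrobp*-/- 9 of 15 did. By peak-calling p the order differed, since 16 of 18 and 11 of 15 peaks were more significant than the median of their list, and 4 and 3 stood in its top 10%. The p of a peak depends on how many reads cover it as well as on its enrichment, and reads per peak are not given in the files used here, so the depth behind a single value is unknown.

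**Figure D1:**
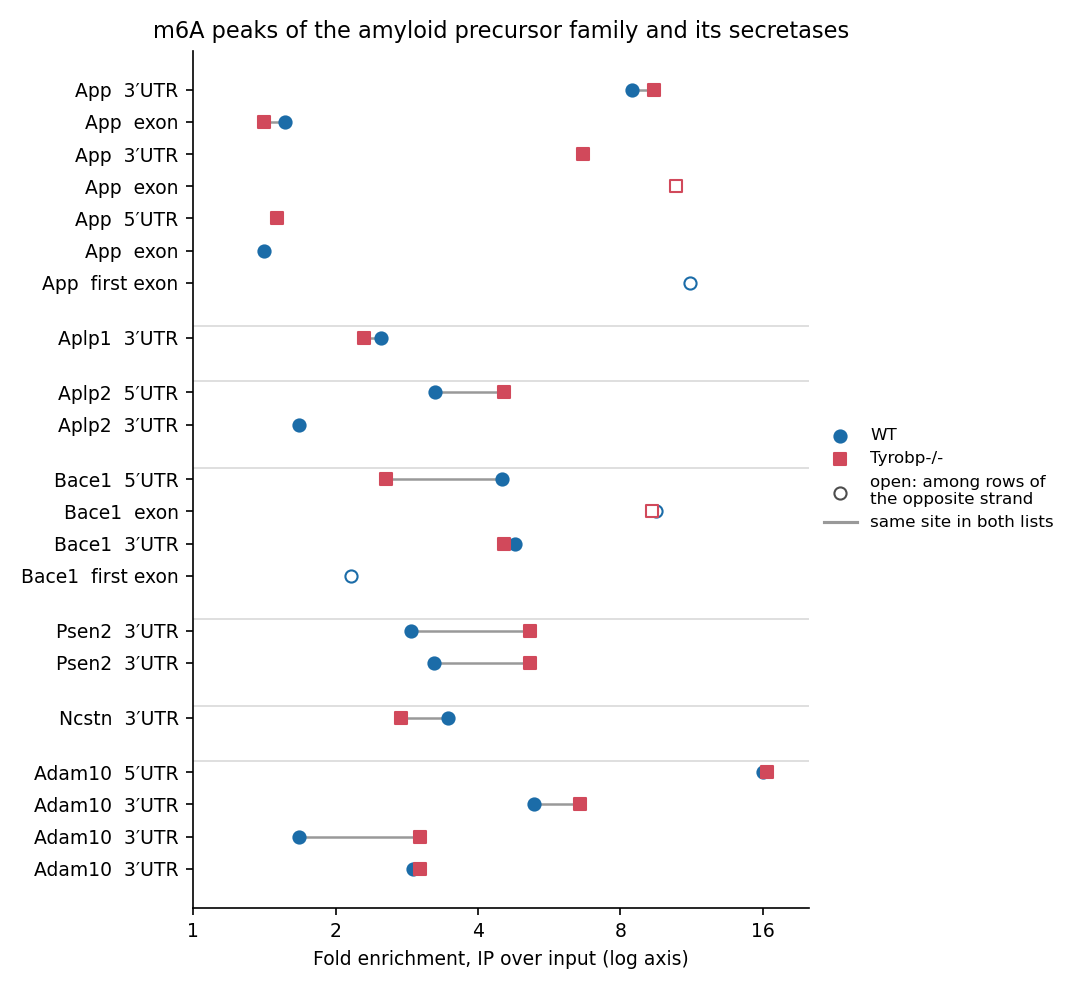
Fold enrichment of IP over input (log axis) of every peak of the 7 genes in the WT (blue circles) and *Tyrobp*-/- (red squares) lists, 1 value per peak and genotype without error bars. Grey lines join peaks that share exonic bases, and the 2 sites of *Psen2* share 1 peak of the *Tyrobp*-/- list, as do the lower 2 of *Adam10*. Enrichment ran from 1.41 at *App* exons to 16.3 at the *Adam10* 5′UTR, and open symbols mark peaks listed among rows of the opposite strand.

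The 3′UTR peak at the end of *App* was the most significant peak of the 7 genes in both genotypes. *App* lies on the reverse strand of chr16 (84952666-85175255). This peak covered 840 bp in WT (chr16:84952589-84953428), with a fold enrichment of 8.45 and a log10 p of -1000. In *Tyrobp*-/- it covered 810 bp (chr16:84952619-84953428), with a fold enrichment of 9.43 and a log10 p of -1370. The log2 ratio of *Tyrobp*-/- over WT was 0.16, and 56.8% of all pairs of peaks lay below it, so the site sat near the middle of the list.

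The other *App* peaks among rows of its own strand and inside the gene were weak in enrichment. A peak of 2 blocks, 179 and 32 bp long, in exons inside the gene (chr16:85056348-85079871) had a fold enrichment of 1.56 in WT. Its partner in *Tyrobp*-/- was a single block of 151 bp with a fold enrichment of 1.41, a log2 ratio of -0.15. Both had extreme p-values for so small an enrichment, with a log10 p of -558 and -214. A peak of 4 blocks and 210 bp in all (chr16:85027620-85043588) was listed in WT, with a fold enrichment of 1.41, and no *Tyrobp*-/- peak shared bases with it. The 5′UTR peak (chr16:85173676-85173736) was listed in *Tyrobp*-/- with a fold enrichment of 1.5 and had no partner in WT.

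The remaining 3 peaks that carry the name *App* rest on thin evidence for that gene. A *Tyrobp*-/- peak of 181 bp annotated as 3′UTR (chr16:84949954-84950134) lies past the RefSeq end of *App* and had a fold enrichment of 6.67 and a peak-calling FDR of 0.29. A WT peak of 89 bp with a fold enrichment of 11.2 (chr16:85080346-85080434) and a *Tyrobp*-/- peak of 206 bp with a fold enrichment of 10.5 (chr16:85083099-85083304) were annotated to ENSMUSG00000115469. They had the weakest p-values of the *App* peaks inside the gene, with a log10 p of -4.91 and -2.79.

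Both of these last peaks were listed among rows of genes on the forward strand, opposite to *App*. The rows of each list run in stretches of genes on the same strand: 90.4% of 3353 WT rows and 90.1% of 3489 *Tyrobp*-/- rows sampled lay on the strand of most of the 12 rows before and the 12 after them. Around the WT peak all 24 counted rows were of forward genes, and around the *Tyrobp*-/- peak 23 were forward and 1 reverse. The strand is read from the order of rows here, since the lists give no strand of their own for a peak. By the same reading 3 WT and 2 *Tyrobp*-/- peaks of the 7 genes lay among rows of the opposite strand, the others of them in *Bace1*.

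*Aplp1*, the neuronal relative of *App*, had a single 3′UTR peak at its 3′ end on chr7 in each genotype. It covered 150 bp in WT (chr7:30434982-30435131) and 180 bp in *Tyrobp*-/- (chr7:30434982-30435161). The fold enrichment was 2.49 in WT and 2.30 in *Tyrobp*-/-, a log2 ratio of -0.11. By fold enrichment it stood at percentiles of 17.5 and 13.0 of the lists, while by significance it stood at 96.6 and 96.4. As at the *App* exons, a weakly enriched site was called with high significance.

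*Aplp2*, the more widely expressed relative, had a 5′UTR peak in both genotypes. It covered 211 bp in WT (chr9:31211605-31211815), with a fold enrichment of 3.24, and 241 bp in *Tyrobp*-/- (chr9:31211575-31211815), with a fold enrichment of 4.55. The log2 ratio was 0.49, short of the fold of 1.5 used as a call here, and 76.6% of all pairs lay below it. At the 3′ end of *Aplp2* a WT peak of 151 bp (chr9:31149557-31149707) had a fold enrichment of 1.67 and a log10 p of -96.9, and no *Tyrobp*-/- peak shared bases with it.

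**Figure D2:**
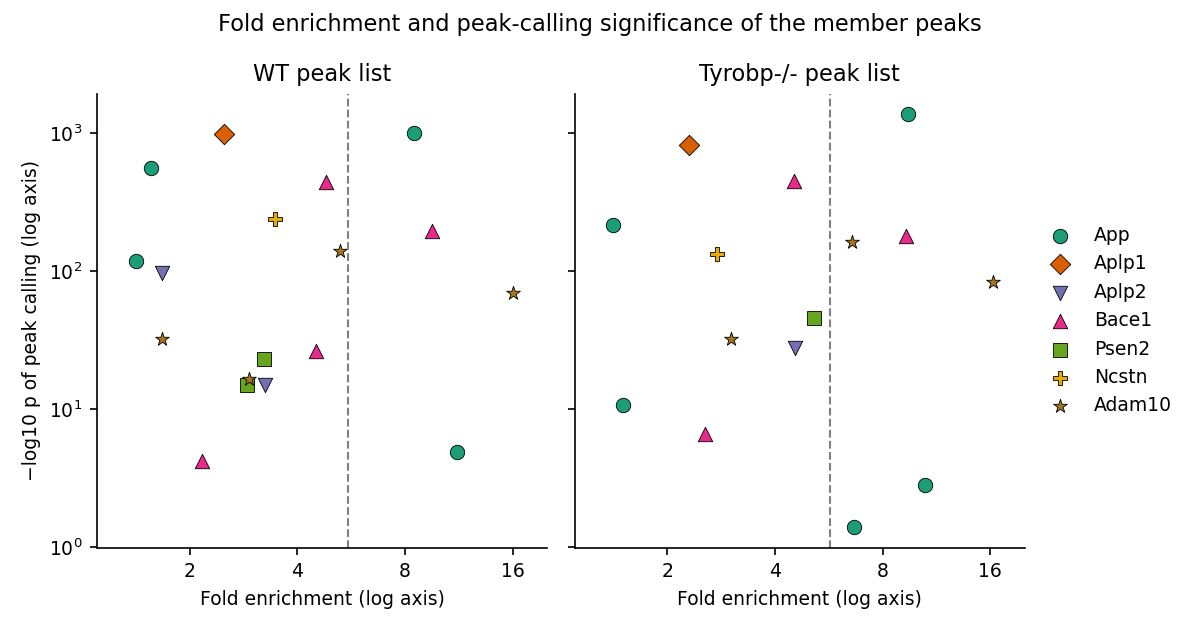
Fold enrichment (log axis) against -log10 of the peak-calling p (log axis) for the 18 WT and 15 *Tyrobp*-/- peaks, with a symbol for each gene and a dashed line at the median fold enrichment of each list, 5.54 and 5.72. *Aplp1* combined low enrichment with high significance in both lists, and the *App* peaks annotated to another gene model combined high enrichment with low significance.

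*Bace1* had a 5′UTR peak at the same position in both genotypes, with the largest ratio below 0 of the 14 pairs. *Bace1* lies on the forward strand of chr9 (45838545-45862484), and the peak covered 300 bp (chr9:45838580-45838879). Its fold enrichment was 4.50 in WT and 2.55 in *Tyrobp*-/-, a log2 ratio of -0.82, with a log10 p of -26.3 and -6.57. It was the only site of the 7 genes at least 1.5-fold lower in *Tyrobp*-/-, which 12.6% of all pairs were, and 8.00% of all pairs lay below it. Its boundaries were identical in the 2 lists, and with 1 value per genotype the ratio was not tested.

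The 3′UTR peak of *Bace1* had close values in the genotypes. It covered 720 bp in WT (chr9:45861734-45862453) and 750 bp in *Tyrobp*-/- (chr9:45861734-45862483). The fold enrichment was 4.80 in WT and 4.53 in *Tyrobp*-/-, a log2 ratio of -0.08, with a log10 p of -445 and -446. The ratio at the 3′ end of the mRNA therefore lay close to that of the median pair, 0.08, whereas that at its 5′ end did not, and with 1 value per genotype the difference between the 2 sites was not tested.

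Over the last exons of *Bace1* the names of the peaks and the strand of the rows around them went apart. *Rnf214*, on the reverse strand (chr9:45856769-45906911), overlaps the 3′ end of *Bace1*. The highest fold enrichment under the name *Bace1* stood at a single block annotated as exon 6 of 8, 1099 bp long in WT (chr9:45858604-45859702) and 1040 bp in *Tyrobp*-/- (chr9:45858604-45859643), with 9.53 and 9.32 and a log2 ratio of -0.03. In WT 20 of the 23 counted rows around it were of reverse genes and in *Tyrobp*-/- 21 of 24, as were 20 of 23 around a WT peak of 91 bp (chr9:45856829-45856919) with a fold enrichment of 2.16.

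Conversely, the most significant peak in this stretch among forward rows carried the name *Gm49338*, a gene annotated on the reverse strand. It had a fold enrichment of 8.32 and a log10 p of -1110 in WT (chr9:45858996-45861076, 1259 bp of exonic blocks) and of 7.00 and -877 in *Tyrobp*-/- (chr9:45858966-45861106, 1319 bp). Its log2 ratio was -0.25, and it was split into blocks separated by gaps, unlike the single block named *Bace1*. Around it 21 of 24 rows in WT and 22 of 24 in *Tyrobp*-/- were of forward genes. A further peak named *Gm49338* among reverse rows covered 743 bp in WT and 773 bp in *Tyrobp*-/-, with a fold enrichment of 8.41 and 7.04. The library preparation used dUTP, which keeps the strand, but the sources used here do not say whether reads were assigned by strand, so the share of these peaks that belongs to *Bace1*, *Rnf214* or *Gm49338* RNA cannot be told apart. These peaks named *Gm49338* do not belong to the 18 and 15 counted and were looked up after the values of *Bace1* were seen.

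**Figure D3:**
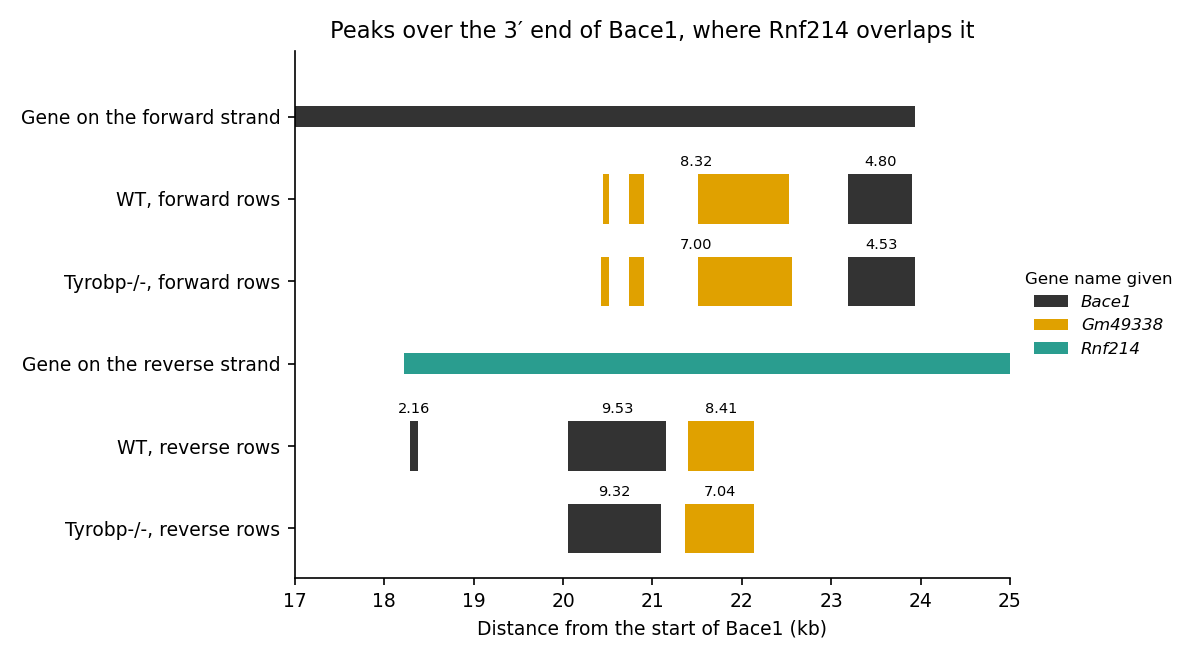
Peaks over the last part of *Bace1* by distance from its start (kb), drawn to scale, with the blocks of each peak coloured by the gene name the list gives it and placed by the strand of the rows around it. Numbers are fold enrichments, the bar of *Rnf214* runs on past the right edge, and the 5′UTR peak of *Bace1* lies left of the plot. Peaks named *Gm49338* stood among both forward and reverse rows, with 8.32 and 8.41 in WT and 7.00 and 7.04 in *Tyrobp*-/-.

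*Psen2*, a catalytic subunit of γ-secretase on the reverse strand of chr1 (180227004-180263467), was covered in its 3′UTR in both genotypes. The WT list held 2 separate peaks there, of 180 bp (chr1:180227004-180227183) with a fold enrichment of 2.89 and of 270 bp in 2 blocks (chr1:180227512-180228895) with 3.23. The *Tyrobp*-/- list held 1 peak that contained both, of 837 bp in 2 blocks (chr1:180227004-180228954), with a fold enrichment of 5.14. The log2 ratios were 0.83 and 0.67, above the fold of 1.5, and the WT peaks made up 21.5% and 32.3% of the *Tyrobp*-/- peak. Fold enrichment was thus read over different lengths of RNA in the 2 lists, and at a reciprocal overlap of 50% neither site counted as shared.

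*Ncstn*, the subunit of γ-secretase that holds substrates, lies on the reverse strand of chr1 (172066013-172082789) and had 1 peak in its 3′UTR in each genotype. It covered 419 bp in WT (chr1:172066312-172066730) and 330 bp in *Tyrobp*-/- (chr1:172066401-172066730). The fold enrichment was 3.45 in WT and 2.75 in *Tyrobp*-/-, a log2 ratio of -0.33 that did not reach the fold of 1.5, and 21.7% of all pairs lay below it.

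*Adam10*, the α-secretase on the forward strand of chr9 (70678944-70780229), had the highest fold enrichment of the 7 genes, at its 5′UTR. The peak covered 211 bp in WT (chr9:70678997-70679207) and 241 bp in *Tyrobp*-/- (chr9:70678997-70679237). The fold enrichment was 16 in WT and 16.3 in *Tyrobp*-/-, a log2 ratio of 0.03, and it ranked at percentiles of 92.4 and 93.1 of the lists. The *Bace1* 5′UTR was thus lower in *Tyrobp*-/- by a log2 ratio of -0.82 while the *Adam10* 5′UTR stood at 0.03, values that are set side by side here without a test.

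The 3′UTR of *Adam10* held 3 peaks in WT and 2 in *Tyrobp*-/-. The first (chr9:70778162-70778552 in WT) had a fold enrichment of 5.25 in WT and 6.57 in *Tyrobp*-/-, a log2 ratio of 0.32. Nearer the end, WT peaks of 331 bp (chr9:70779570-70779900) and 181 bp (chr9:70780019-70780199) had 1.67 and 2.92, and a *Tyrobp*-/- peak of 660 bp (chr9:70779570-70780229) with 3.01 contained both. Their log2 ratios were 0.85 and 0.04. The same *Tyrobp*-/- value therefore gave a call at the first and none at the second. In *Psen2*, where a wide peak also took the place of 2, both sites passed the fold.

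Over the 14 pairs the median log2 ratio was 0.04, with a range from -0.82 to 0.85, against a median of 0.08 over all 26713 pairs of the lists, whose quartiles were -0.27 and 0.46. There were 8 pairs above 0 and 6 below. At least 1.5-fold higher in *Tyrobp*-/- were 3 of the 14, against 19.6% of all pairs, and 1 was at least 1.5-fold lower, against 12.6%. These shares lay near those of all pairs.

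All 3 higher pairs were among the 4 whose *Tyrobp*-/- peak also matched a second WT peak. Such pairs made up 17.03% of all pairs. Of them, 41.2% were at least 1.5-fold higher in *Tyrobp*-/- and 10.05% lower, against 15.2% and 13.2% of the pairs of 1 WT peak with 1 *Tyrobp*-/- peak. Among the other 10 pairs of the 7 genes, 0 were higher and 1, the *Bace1* 5′UTR, was lower, with a median log2 ratio of -0.06, against 0.04 over all such pairs.

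**Figure D4:**
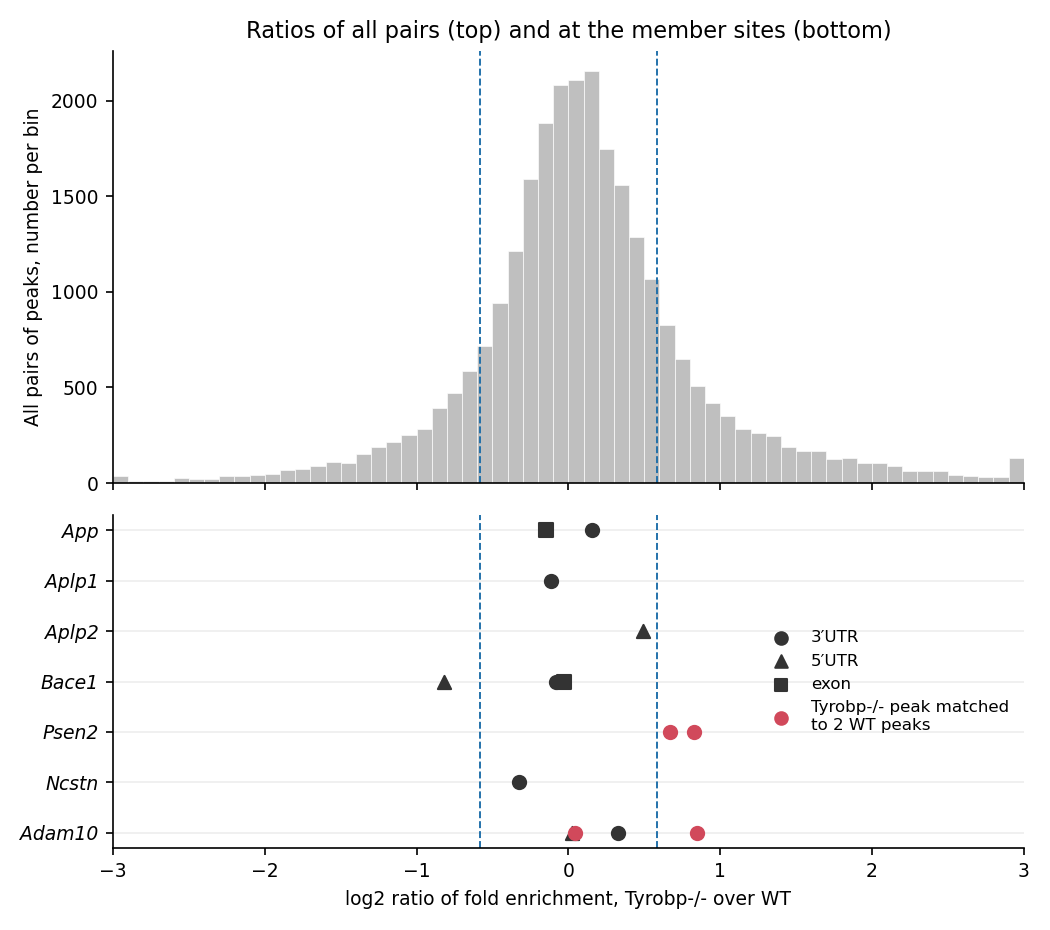
Log2 ratio of fold enrichment, *Tyrobp*-/- over WT, over all 26713 pairs (top, grey bars of 0.1 width, values past 3 in the outermost bars) and at the 14 sites of the 7 genes (bottom, 1 symbol per site). Dashed lines mark the fold of 1.5, which 4 sites passed: 3 higher ones in *Psen2* and *Adam10*, each in a *Tyrobp*-/- peak matched to 2 WT peaks (red), and the *Bace1* 5′UTR on the lower side.

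By annotation most peaks of the 7 genes lay in 3′UTRs. In WT, 10 of 18 (55.6%) lay in 3′UTRs, against 47.2% of all WT peaks, and 3 (16.7%) in 5′UTRs, against 18.9%. In *Tyrobp*-/-, 8 of 15 (53.3%) lay in 3′UTRs, against 49.3%, and 4 (26.7%) in 5′UTRs, against 17.3%. Weighted by exonic length, the 5′UTR share of the 7 genes was 13.2%, and no weighted share over all peaks was computed to set beside it. First exons held 2 of the WT peaks (11.1%, against 11.5%) and 0 of the 15 *Tyrobp*-/- peaks, against 11.6%. Neither of these 2 lay in a first exon of *App* or *Bace1*, whose names they carry. Both were annotated to the first exon of another gene model (ENSMUSG00000115469 and ENSMUSG00000089810), among rows of the opposite strand. Each of the 7 genes had a 3′UTR peak in WT, and all but *Aplp2* had one in *Tyrobp*-/-.

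The table that compares the genotypes named 4671 genes, against 15781 genes with a WT peak and 16146 with a *Tyrobp*-/- peak. It held rows for 3 of the 7 genes. They were *Psen2* at the 3′UTR (chr1:180227362-180228984), *Bace1* at the block among rows of the opposite strand (chr9:45858604-45859732, where 7 of 24 counted rows were forward) and *App* at the 3′UTR (chr16:84952619-84953458) and at exon 10 of 18 (chr16:85025434-85025584). The last overlapped 0 peaks of either list. *Aplp1*, *Aplp2*, *Ncstn* and *Adam10* had no row, and neither did the *Bace1* 5′UTR, the site with the largest ratio below 0. A row, or the lack of one, is no call of a difference here, since the comparison values were not used.

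Among 30 other genes of amyloid precursor processing, 25 had peaks in both lists, 1 in WT and not *Tyrobp*-/-, and 4 in *Tyrobp*-/- and not WT. Over all genes, 10.1% of those with a WT peak had none in *Tyrobp*-/-, and 12.2% of those with a *Tyrobp*-/- peak had none in WT. These counts go by the name a peak carries, and a peak of another name can cover the same bases. The gene with a WT peak alone was *Apoe*, which encodes the main lipid carrier of the brain, at an exon with a fold enrichment of 1.41. Those with *Tyrobp*-/- peaks alone included *Adam9*, a metalloprotease related to *Adam10*, *Vps35*, a subunit of the retromer that recycles *App*, and *Itm2b*, a membrane protein that binds *App*. Their fold enrichments were 1.62 for *Adam9*, 4.55 for *Vps35* and 1.98 for *Itm2b*, each at a 3′UTR where no WT peak of any name shared bases.

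*Aph1a*, *Aph1b*, *Aph1c* and *Psenen*, which encode subunits of γ-secretase, each had a 3′UTR peak in both lists. The fold enrichment was 2.34 in WT and 1.90 in *Tyrobp*-/- for *Aph1a* (log2 ratio -0.30), and 2.46 and 2.15 for *Psenen*, the smallest subunit (log2 ratio -0.19). It was 17.5 and 14.0 for *Aph1b* (log2 ratio -0.32) and 15.1 and 24.8 for *Aph1c* (log2 ratio 0.72). *Aph1b* and *Aph1c* are near-identical copies, between which the counting could split reads, so their values are uncertain.

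Over the 42 pairs of the 30 genes the median log2 ratio was 0.16, against 0.08 over all pairs. At least 1.5-fold higher in *Tyrobp*-/- were 8 of them, against 19.6% of all pairs, and 2 were lower, against 12.6%, so higher pairs were about as frequent as in the whole list. The widest range within a gene was that of *Bace2*, a relative of *Bace1*, with 4 pairs along its 3′UTR. A WT peak with a fold enrichment of 3.13 and a peak-calling FDR of 0.055 stood against 25.7 in *Tyrobp*-/- (log2 ratio 3.04), and WT peaks with 4.01 and with 5.86 (FDR 0.052) both lay against the same *Tyrobp*-/- peak with 12.2 (log2 ratios 1.61 and 1.06). The remaining pair stood at 12.1 in WT and 13.0 in *Tyrobp*-/- (log2 ratio 0.10), at another site of the same 3′UTR.

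Of the other genes with large ratios, *Itm2c*, which encodes a relative of *Itm2b*, had 3.87 in WT and 14.3 in *Tyrobp*-/- at its 5′UTR (log2 ratio 1.89) and 2.17 and 2.91 at its 3′UTR (0.42). For *Adam17*, a second α-secretase, 1 *Tyrobp*-/- peak with 5.23 matched WT peaks with 2.11 (log2 ratio 1.31) and 6.13 (-0.23). *Ide*, an enzyme that degrades amyloid β, had 1.52 in WT and 2.90 in *Tyrobp*-/- (log2 ratio 0.93), over peaks of 210 and 539 bp. Its other 3′UTR pair had 1.49 and 1.99 (log2 ratio 0.42). The 2 lower pairs were *Vps26a*, another retromer subunit, with 13.7 and 7.62 at its 5′UTR (log2 ratio -0.85) and a peak-calling FDR of 0.17 in *Tyrobp*-/-, and *Ece1*, a protease that also degrades amyloid β, with 3.32 and 1.85 at a 3′UTR (log2 ratio -0.84). This *Ece1* peak covered 360 bp in WT and 121 bp in *Tyrobp*-/-. The other 3′UTR pair of *Ece1* went the other way, with 4.38 and 5.26 (log2 ratio 0.26).

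**Figure D5:**
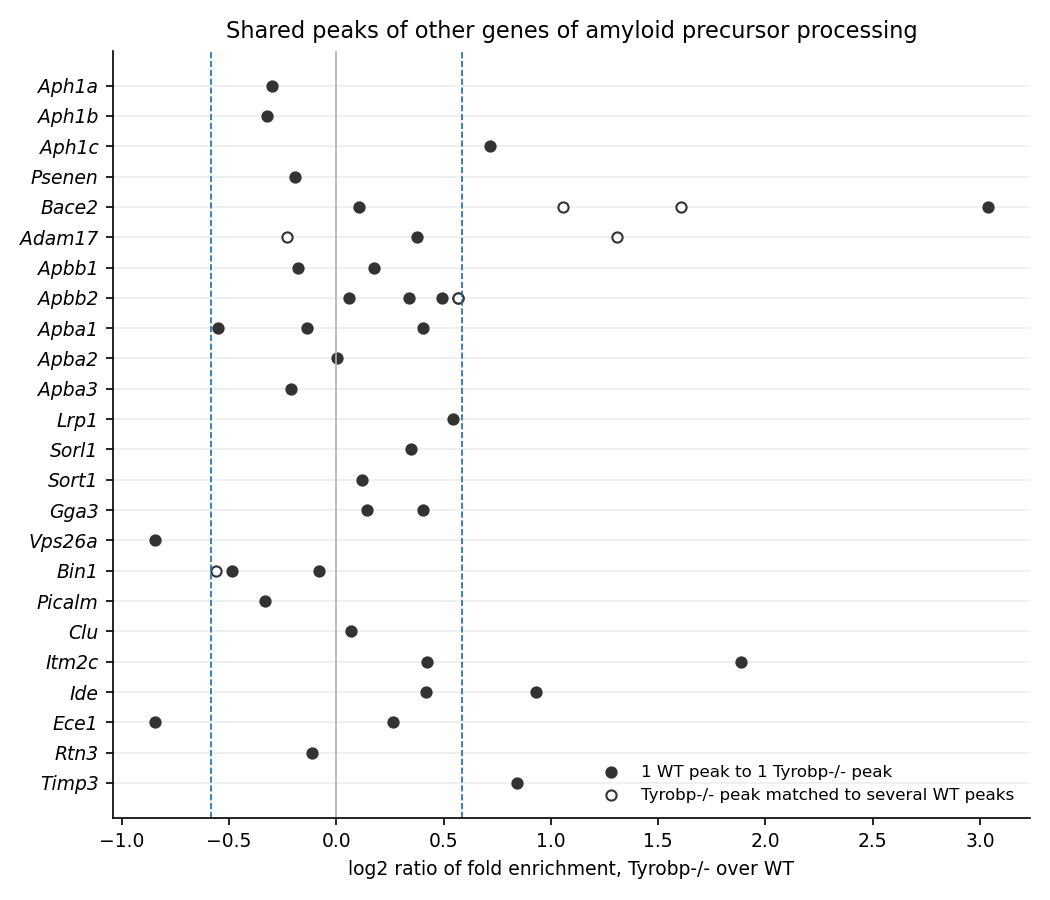
Log2 ratio of fold enrichment, *Tyrobp*-/- over WT, at the 42 pairs of peaks of the other genes of amyloid precursor processing, 1 point per pair, with dashed lines at the fold of 1.5. *Bace2* reached 3.04, between peaks that overlap only in part, and *Itm2c* 1.89. Most pairs lay between the lines, and open points mark *Tyrobp*-/- peaks matched to several WT peaks.

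The libraries held from 61189368 to 73554506 valid reads. The share of G and C in the reads was 48.46% to 49.33% in the 3 *Tyrobp*-/- IP libraries and 49.16% to 50.24% in the 3 WT IP libraries, against 47.59% to 48% and 47.63% to 47.98% in the input libraries. Its part in the ratios was not tested. Of 8 marker genes of hippocampal neurons 7 had a peak in each list, as did 4 of 6 of microglia, with *Tyrobp* itself without a peak in either, so the lists hold no check of the targeted gene. Of 7 marker genes of hypothalamic neurons 4 had a peak in WT and 2 in *Tyrobp*-/-, with *Oxt* and *Trh* listed in WT and not in *Tyrobp*-/- and *Pmch*, *Hcrt* and *Avp* in neither. Over all genes, 10.1% of those with a WT peak had none in *Tyrobp*-/-. *Oxt* and *Trh* were named after their values were seen, and the marker counts were not tested. A peak shows only that the RNA was read, not its level, and the lack of a peak does not show that RNA was lower. The tissue is a mixture of cell types. Fewer cells of a type, less RNA per cell and less enrichment by the antibody cannot be told apart. The part of tissue makeup in the ratios was not tested.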

How the data were processed

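Per the labels, 12 MeRIP-seq libraries of hippocampus were made, an IP and an input library for each of 3 WT and 3 *Tyrobp*-/- samples. The authors cleaned reads with fastp, aligned them to GRCm38 (mouse genome v96 of Ensembl) by HISAT2, called peaks per genotype with exomePeak and used ChIPseeker for annotation. Versions are not given in the sources used here. For each peak the authors deposited the p-value of IP against input, the log10 of that p and of its FDR, each used as a score, and the fold enrichment, a ratio of IP over input. The highest p in either list was 0.05, unadjusted, and 10.3% of WT and 11.0% of *Tyrobp*-/- peaks had an FDR of 0.05 or above. The authors also deposited read counts per library, raw and valid, with the percent of bases at Q30 and of G and C. In the comparison table only the rows listed and their positions were used. Its columns of the log2 fold change between the genotypes, its p and the log10 of its FDR hold the study's own comparison and were not used.

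Each WT peak was paired with the *Tyrobp*-/- peak sharing most bases of exonic blocks, at least 1 bp, under any gene name. The log2 ratio of their fold enrichments was called at a fold of 1.5 and set beside all pairs. The pairing was tested on simulated intervals with at most 1 partner each. That test did not cover peaks that match several peaks of the other list. Strand was read from the 12 rows on each side. Each peak has 1 value per genotype, so no test, interval or omission of a replicate could be made. The genes and lists were chosen with earlier results of these data known. Named are every member and, of the 30 other genes, those with peaks in 1 list, the 6 with the largest ratios past the fold, the γ-secretase subunits and *Bace2*, except 1 gene that is not reported here. *Gm49338*, *Rnf214*, *Oxt* and *Trh* were named after their values were seen. Start sequences and gene positions are from RefSeq (GRCm38.p6), with 6 of the 7 genes in its table of starts. No genome sequence was used here, so peaks were not searched for motifs. Python 3.11.15, numpy 2.4.6, pandas 2.3.3 and matplotlib 3.10.9 were used.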

Additional observations from a re-analysis of the deposited data

How the results depend on the processing

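No paired analysis was possible because each peak has 1 value per genotype, and for the same reason no sample could be left out. Requiring a fold enrichment of at least 4 left 7 of the 18 WT and 9 of the 15 *Tyrobp*-/- peaks of the 7 genes. *Aplp1* and *Ncstn* then had 0 peaks in either list. *Aplp2* and *Psen2* had 0 in WT and 1 each in *Tyrobp*-/-. With a fold of 2, 10.01% of all pairs were higher and 5.83% lower in *Tyrobp*-/-, and 0 pairs of the 7 genes passed it. Weighting peaks by exonic length moved the share in other exons in WT to 25.1%, that in first exons in WT to 2.97% and that in 5′UTRs in *Tyrobp*-/- to 13.2%. Leaving out peaks among rows of the opposite strand, an alternative chosen after seeing the data, left 2 WT peaks of *Bace1*. At a peak-calling FDR below 1e-5, *App* kept 3 *Tyrobp*-/- peaks, and at a reciprocal overlap of 50% *Psen2* kept 0 shared sites. Taking the most significant peak of *Aplp2* in each list gave a log2 ratio of 1.45, set between its 3′UTR in WT and its 5′UTR in *Tyrobp*-/-. Centring on the median of all pairs, 0.08, was too small a shift to change the sign of a ratio past the fold. Taking the mean of all partners left these ratios as they were, so neither alternative could test them. The median log2 ratio over the pairs of the 7 genes, 0.04, became -0.04 after centring and -0.03 at a reciprocal overlap of 50%.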
